A study of Mus musculus with 8 samples.

Results

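Pdgfra, Cspg4, Olig1, Olig2, Gpr17, Bcas1, Enpp6, Neu4, Sox6 and Tnr are genes of the early oligodendrocyte lineage. They were chosen by name and role and not by a cut on their values, though earlier results of these data were known. They made up 10 of the 54307 genes in the count table, and all 10 were among the 17669 genes expressed highly enough to be tested. RNA sequencing had been done on polyA RNA from the periventricular tissue of 1 hemisphere, which holds the ventricular-subventricular zone (V-SVZ), in 4 wild-type (WT) and 4 Lrig1 knockout (KO) mice. KO mice were homozygous for a CreERT2 cassette knocked into the first exon of Lrig1, so the gene is lost in every cell throughout life, and WT mice were wild-type littermates without the cassette. All 8 mice were 8 weeks old and on a 129 strain background, given as 129-Elite in the study's methods, and no group received a treatment. The WT group held 3 females and 1 male (WT replicate 2), and the KO group held 2 females and 2 males (KO replicates 1 and 3). LRIG1 is a cell-surface protein known to restrain growth factor receptors of the ErbB family. For adult neural stem cells the study proposes that it acts instead mainly by facilitating TGFβ and BMP signalling. The comparison asks how gene expression in the V-SVZ differs without LRIG1.

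Oligodendrocyte precursors are dividing glial cells that persist in the adult brain, and some arise from stem cells of the V-SVZ. They respond to platelet-derived growth factor (PDGF) through PDGFRA. As they leave the cell cycle they pass through a short committed stage, marked by genes such as Gpr17, Bcas1 and Enpp6, before they make myelin. Olig1 and Olig2 encode transcription factors that are used along the whole lineage. In bulk tissue, fewer cells of a type and less RNA per cell cannot be told apart.

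The libraries held 47887400 to 74482300 estimated gene counts. Levels are given as TMM-normalised CPM, counts scaled to a library of constant size, as the mean ± SD of 4 mice where a group is summarised. Each member had at least 472 estimated counts in every mouse and at most 12360, so no member was near the limit of detection. The targeted gene Lrig1 had 45.6, 13.5, 41.4 and 34.3 CPM in WT replicates 1 to 4 and 1.41, 4.15, 1.17 and 2.96 CPM in KO replicates 1 to 4. All KO mice were below all WT mice for Lrig1, with a log2 fold change of -3.80 (SE 0.52) and an adjusted p of 0.286 by edgeR's quasi-likelihood test. With sex as a covariate the same test gave Lrig1 an adjusted p of 0.000176 in edgeR, and DESeq2 without it gave 4.49e-08.

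Libraries that stood apart are described first because they touch the members. WT replicate 4 had the highest level of the 8 mice for 8 of the 10 members, while it was the highest mouse for 14.2% of all tested genes. Bcas1 was highest in WT replicate 2 and Enpp6 in WT replicate 1. WT replicate 2 stood apart in another way, with a summed level of 8 cortical neuron markers of 1964 CPM where the other 7 mice had 152 to 959 CPM, and with the lowest sum of 8 striatal neuron markers, 2354 CPM. The cortical marker Slc17a7, a glutamate transporter of excitatory neurons, ranged from 5.45 CPM in KO replicate 4 to 1356 CPM in WT replicate 2, and so differed widely between mice of both groups. Without WT replicate 4 the members' log2 fold changes were -0.28 for Cspg4, 0.07 for Pdgfra, 0.24 for Sox6, -0.02 for Tnr, 0.01 for Olig1 and -0.0035 for Olig2. They were 0.02 for Gpr17, -0.06 for Bcas1, -0.16 for Enpp6 and -0.02 for Neu4, so only the value of Enpp6 was not higher than with all 8 mice.

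The upstream sequences of 4 members are shown to give their genomic context: those of Pdgfra and Cspg4, the classical surface markers of precursors, of the lineage factor Olig2, and of Neu4. Neu4 was taken because its level went with that of Olig2 over the mice, a choice made from the values. RefSeq tables held start sites for 7 of the 10 members. Each run is the 250 bases before an annotated start on GRCm38.p6, read 5′ to 3′ on the plus strand, and capitals mark an E-box (CANNTG, searched on both strands), the motif read by OLIG1, OLIG2 and related factors. The windows are chr5:75152001-75152250 for Pdgfra, chr9:56864854-56865103 for Cspg4, chr16:91225300-91225549 for Olig2 and chr1:94020243-94020492 for Neu4.
Pdgfra: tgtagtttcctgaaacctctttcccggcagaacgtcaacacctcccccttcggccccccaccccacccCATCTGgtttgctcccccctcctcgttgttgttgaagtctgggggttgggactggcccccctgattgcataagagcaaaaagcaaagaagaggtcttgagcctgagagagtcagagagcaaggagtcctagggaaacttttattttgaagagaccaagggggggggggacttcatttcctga
Cspg4: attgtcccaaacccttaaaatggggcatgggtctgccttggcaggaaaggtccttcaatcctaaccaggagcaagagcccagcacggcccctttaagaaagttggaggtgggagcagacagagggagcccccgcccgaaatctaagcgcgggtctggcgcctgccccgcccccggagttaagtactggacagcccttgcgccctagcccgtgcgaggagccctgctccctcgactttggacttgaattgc
Olig2: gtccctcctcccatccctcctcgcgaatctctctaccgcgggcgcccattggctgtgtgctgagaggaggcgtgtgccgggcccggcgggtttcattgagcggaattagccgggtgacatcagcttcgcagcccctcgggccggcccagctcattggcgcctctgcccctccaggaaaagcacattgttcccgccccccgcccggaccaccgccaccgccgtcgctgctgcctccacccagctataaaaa
Neu4: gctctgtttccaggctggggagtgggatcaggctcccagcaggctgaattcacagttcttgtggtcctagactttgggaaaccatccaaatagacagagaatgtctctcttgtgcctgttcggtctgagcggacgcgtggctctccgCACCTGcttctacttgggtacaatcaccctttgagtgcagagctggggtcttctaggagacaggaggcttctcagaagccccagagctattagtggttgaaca

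The Pdgfra window held 1 E-box (CATCTG) and the Neu4 window 1 (CACCTG), and those of Cspg4 and Olig2 held none. Of 32536 mouse promoter windows of this length, 66.2% held an E-box, so its presence is common. A match here describes letters and not a bound site. The Olig2 window was the richest of these 4 in G and C, at 66.8%, against a median of 52.4% over all windows.

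None of the 10 members passed an adjusted p of 0.1 between KO and WT mice, against 0.00566% of all tested genes, which is 1 gene. That gene, Gm43079, was named after its values were seen. It had 0.998 to 1.21 CPM in the WT mice and was listed at 0 in all KO mice. Every member had an adjusted p of 0.9998 in edgeR's quasi-likelihood test, adjusted by Benjamini-Hochberg over all tested genes. Cspg4 was the only member with an unadjusted p under 0.05, where 1.88% of all tested genes were. KO and WT mice overlapped for all 10 members, while 1.53% of all tested genes did not overlap, 0.877% with every KO mouse below every WT mouse and 0.657% with every KO mouse above. The fitted log2 fold change was below 0 for 9 members and above 0 for Sox6, beside 50.3% of all tested genes below 0 and 49.7% above. The members' median was -0.11 and the median of all tested genes was -0.00094. Without WT replicate 4 the median was -0.01, with 6 of 10 members below 0.

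**Figure D1:**
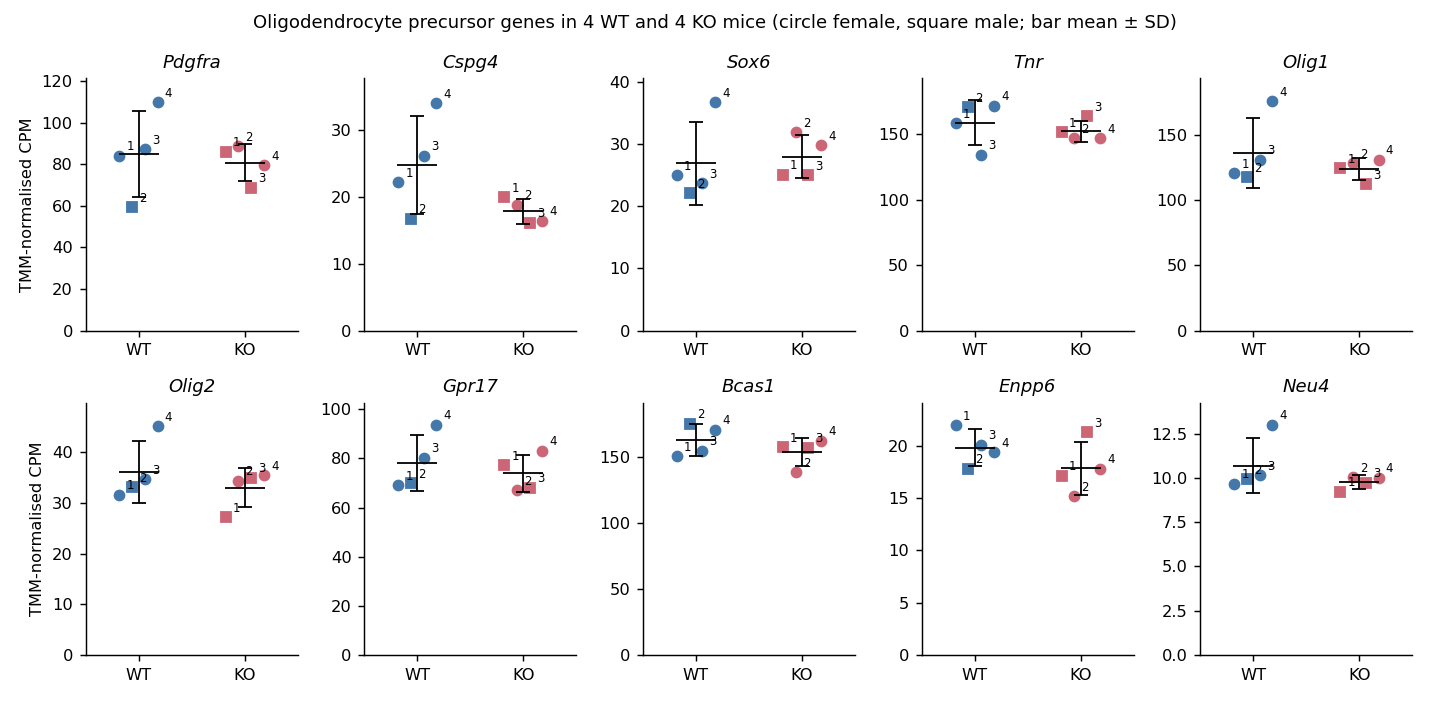
Level of each member in each mouse, in TMM-normalised CPM from 0, with WT in blue and KO in red, circles for females, squares for males, replicate numbers beside the points and bars for the mean ± SD of 4 mice. The 2 groups overlap in all 10 panels, and WT replicate 4 is the highest point in 8 of them.

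Cspg4 showed the largest difference among the members. Cspg4 (ENSMUSG00000032911.7) encodes the NG2 proteoglycan of the precursor surface, which pericytes of blood vessels also carry. Its level was 22.3, 16.7, 26.2 and 34.1 CPM in WT replicates 1 to 4, and 19.98, 18.9, 16.2 and 16.5 CPM in KO replicates 1 to 4. Every KO mouse was below the WT median and 2 were below the lowest WT mouse, the male WT replicate 2. The group means were 24.8 ± 7.30 CPM in WT and 17.9 ± 1.84 CPM in KO, a fold of 0.720. The log2 fold change was -0.47 (SE 0.20, 95% interval -0.92 to -0.03), with an unadjusted p of 0.0401 by edgeR's quasi-likelihood test, which did not survive adjustment. Among females, WT mice had 22.3, 26.2 and 34.1 CPM and KO mice 18.9 and 16.5 CPM, with no overlap. Groups this small can separate by chance, and the share of all tested genes that did so among females was not counted. Among males the single WT mouse, at 16.7 CPM, lay between the KO mice, at 16.2 and 19.98 CPM. Leaving out WT replicate 4, whose level was 1.74 times the mean of the other 7 mice, gave a log2 fold change of -0.28 and an unadjusted p of 0.117 by the same edgeR test. The unadjusted p of that test was also above 0.05 without WT replicate 3 or KO replicate 2, 3 or 4 (0.0586 to 0.0915), with sex in the fit (0.0895) and with replicate number as a block (0.0906). It was 0.00293 without WT replicate 2 (log2 fold change -0.62) and 0.0140 in females alone (-0.63) by the same edgeR test, and 0.0215 by DESeq2. The log2 fold change of Cspg4 was below 0 in each of these fits. Genes with an unadjusted p under 0.05 numbered 333 in the main edgeR fit and 558 without WT replicate 2. Such genes numbered 958 in females alone by edgeR and 498 by DESeq2. Markers of mural cells, which could also contribute Cspg4, and of fibroblasts were below 0 for 8 of 9 genes. The median log2 fold change of these 9 genes was -0.21, and none passed the threshold. Their summed level was 174 to 229 CPM in WT and 151 to 199 CPM in KO mice, and none of these markers was at 0. Pdgfrb, the PDGF receptor of pericytes, had 22.3, 23.5, 32.4 and 29.8 CPM in WT and 24.6, 20.1, 21.5 and 19.5 CPM in KO mice (log2 fold change -0.33, SE 0.14). The part of mural cells in the Cspg4 difference was not tested.

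Pdgfra (ENSMUSG00000029231.16), the receptor that carries the PDGF-A signal for division and survival of precursors, was close in the 2 groups. Levels were 84.0, 59.2, 87.2 and 109.7 CPM in WT and 86.0, 88.5, 68.7 and 79.5 CPM in KO mice. All KO mice lay inside the WT range, and the spread among WT mice (SD 20.7 CPM around 85.0) exceeded that among KO mice (SD 8.85 around 80.7). Its log2 fold change was -0.08 (SE 0.17, 95% interval -0.46 to 0.31), which is a KO level of 0.726 to 1.24 times that of WT, and the sign turned to 0.07 without WT replicate 4 and to 0.03 with sex in the fit. The lowest levels, in WT replicate 2 and KO replicate 3, were in the 2 mice with the most Slc17a7 (1356 and 648 CPM), both male. The remaining male, KO replicate 1, had 86.0 CPM of Pdgfra and 368 CPM of Slc17a7. The part of composition or sex in these levels was not tested. All 5 other genes of the PDGF system, its ligands and Pdgfrb, were below 0 with a median log2 fold change of -0.11, 1 (Pdgfrb) had an unadjusted p under 0.05 and none passed the threshold. The ligand Pdgfa, with 31.7 to 43.9 CPM in WT and 32.9 to 38.9 CPM in KO mice, had a log2 fold change of -0.03 (SE 0.11).

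Sox6 and Tnr are also highest early in the lineage, Sox6 as a transcription factor that holds precursors undifferentiated, and Tnr as an extracellular matrix protein that some interneurons make too. Sox6 (ENSMUSG00000051910.14) had 25.0, 22.1, 23.7 and 36.7 CPM in WT and 25.1, 31.9, 25.0 and 29.8 CPM in KO mice. It was the single member with a fold change above 0 (0.06, SE 0.17, 95% interval -0.32 to 0.44), and every KO mouse lay inside the WT range. The sign turned to -0.05 when transcript estimates were summed with length offsets. Tnr (ENSMUSG00000015829.14) had 158.6, 170.8, 134.5 and 172.1 CPM in WT and 151.6, 147.0, 163.9 and 147.1 CPM in KO mice. The KO mice again lay inside the WT range, with a log2 fold change of -0.06 (SE 0.09, 95% interval -0.27 to 0.14). Interneuron markers split evenly, 3 of 6 below 0 with a median of 0.02, and none passed the threshold. Their log2 fold changes ran from -0.29 to 0.30, so the median stands for unlike genes. The part of interneurons in the levels of Sox6 and Tnr was not tested.

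Both lineage factors were highest in WT replicate 4. Olig1 (ENSMUSG00000046160.7) had 121.0, 118.0, 131.1 and 176.1 CPM in WT and 124.6, 128.6, 112.6 and 131.2 CPM in KO mice, with a log2 fold change of -0.14 (SE 0.13, 95% interval -0.43 to 0.16). Olig2 (ENSMUSG00000039830.10), without which the lineage does not form, had 31.6, 33.1, 34.7 and 45.2 CPM in WT and 27.2, 34.4, 35.0 and 35.5 CPM in KO mice, with a log2 fold change of -0.13 (SE 0.13, 95% interval -0.43 to 0.17). For both genes only WT replicate 4 stood clear of the KO mice, and without it the Olig1 log2 fold change was 0.01. Sox10, a partner factor of the lineage that is no member, had 39.5 to 57.0 CPM in WT and 35.3 to 44.1 CPM in KO mice (log2 fold change -0.16, SE 0.13).

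The committed-stage members were also close. Gpr17 (ENSMUSG00000052229.6), a receptor that marks precursors about to differentiate, had 69.1, 70.0, 80.3 and 93.7 CPM in WT and 77.2, 67.1, 68.1 and 83.2 CPM in KO mice, with a log2 fold change of -0.08 (SE 0.12, 95% interval -0.35 to 0.18). Bcas1 (ENSMUSG00000013523.14), which marks newly formed oligodendrocytes and early myelin, had 150.7, 175.0, 154.5 and 170.7 CPM in WT and 157.5, 138.5, 157.1 and 162.4 CPM in KO mice, with a log2 fold change of -0.08 (SE 0.08, 95% interval -0.26 to 0.10). For both genes the groups interleaved, with 2 KO mice below the lowest WT mouse for Gpr17 and 1 for Bcas1. Enpp6 (ENSMUSG00000038173.16), a choline phosphodiesterase that is among the earliest markers of a cell starting to differentiate, had 21.97, 17.8, 20.1 and 19.4 CPM in WT and 17.1, 15.2, 21.3 and 17.8 CPM in KO mice. Here KO replicate 2, at 15.2 CPM, was clearly below the lowest WT mouse, and KO replicate 1, at 17.1 CPM, was slightly below it. KO replicate 4, at 17.798 CPM, was all but level with that WT mouse, at 17.806 CPM. The log2 fold change was -0.15 (SE 0.12, 95% interval -0.41 to 0.11), with -0.08 without KO replicate 2, -0.10 without WT replicate 1 and -0.25 without KO replicate 3. Among females alone, Enpp6 did not overlap (21.97, 20.1 and 19.4 CPM in WT, 15.2 and 17.8 CPM in KO mice), with a log2 fold change of -0.31 and an adjusted p of 0.844 by edgeR's quasi-likelihood test. So few mice can separate by chance, and the share of all tested genes that did not overlap among females was not counted. Neu4 (ENSMUSG00000034000.16), a sialidase enriched in precursors, had 9.68, 9.93, 10.2 and 13.0 CPM in WT and 9.22, 10.1, 9.74 and 10.03 CPM in KO mice, with a log2 fold change of -0.13 (SE 0.11, 95% interval -0.39 to 0.13). It was counted with the committed-stage members in all stage means, so that set mixes stages. For Neu4 only WT replicate 4 lay apart from the other 7 mice.

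**Figure D2:**
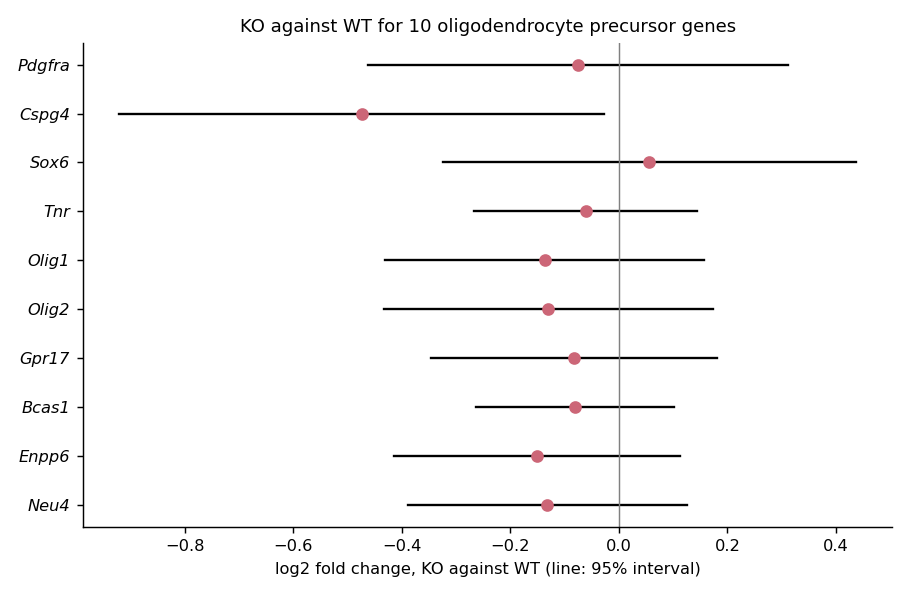
Fitted log2 fold change of KO against WT for each member (points) with its 95% interval (lines). Every interval but that of Cspg4 spans 0, and the intervals are not adjusted for the 17669 genes tested.

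WT replicate 4 stood above the other mice by unequal amounts. Its level over the mean of the other 7 mice was 1.74 for Cspg4, 1.42 for Olig1, 1.41 for Sox6, 1.39 for Pdgfra, 1.37 for Olig2 and 1.32 for Neu4. It was 1.27 for Gpr17, 1.12 for Tnr, 1.09 for Bcas1 and 1.03 for Enpp6. The summed level of the 10 members was 871 CPM in this mouse, 693 to 703 CPM in the other WT mice and 678 to 713 CPM in the KO mice. Of other early markers, 6 of 14 precursor genes and 5 of 11 newly formed genes were highest in the same mouse, as were 4 of 6 astrocyte genes and 2 of 14 myelin-stage genes. The 14 myelin-stage genes went both ways in this mouse, and their mean deviation from the mean of all mice was -0.02 in log2 CPM. Mog, of mature myelin, was at its lowest WT value there (78.9 CPM), while Mobp (1152 CPM) and Trf (425 CPM) were at their highest. The deviation of this library also followed the GC content of transcripts over 17631 genes (Spearman's rho 0.25, with -0.23 to 0.07 in the other mice) and their length (0.18, with -0.20 to 0.12). These are descriptions over genes, which are not independent, and their part in the members' levels was not tested.

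**Figure D3:**
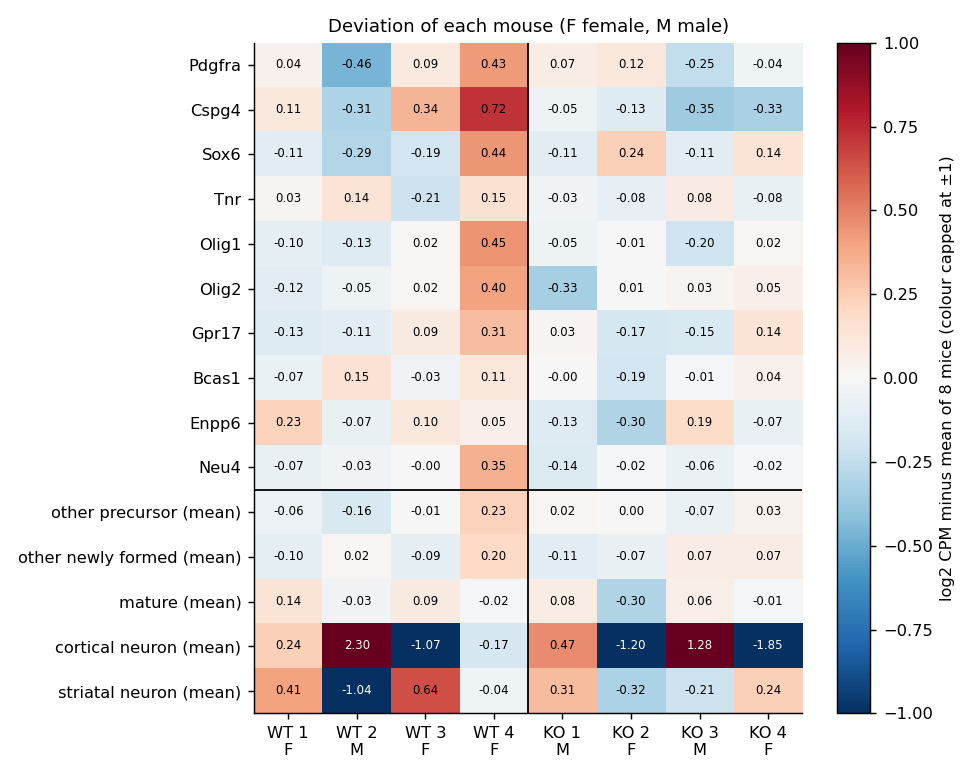
Deviation of each mouse from the mean of 8 mice in log2 CPM, for the 10 members and for the mean of 5 related marker lists, with the colour capped at 1 in either direction and the value printed in each cell. WT replicate 4 is above the mean for every member, and the cortical neuron list spreads far more than any member does.

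Across the 8 mice, 38 of the 45 pairs of members were positively correlated in log2 CPM (median Pearson's r 0.42). Over the 7 mice without WT replicate 4, 22 pairs were, with a median r of -0.03. Olig2 and Neu4 had r of 0.92 over 8 mice and 0.90 over 7, the highest of the 45 pairs over the 7. Their Spearman's rho over 8 mice was 0.74, and KO replicate 1 was the lowest mouse for both, so the value leans on that mouse. Pdgfra and Cspg4 went from 0.81 to 0.64. Olig1 and Olig2 went from 0.75 to 0.09. The points share library and depth, and these values describe a few mice. By rule, genes among the 8 most like the mean profile of Pdgfra, Cspg4, Sox6 and Tnr of 11465 genes searched were Apc2, Prr12, Ep300, Map3k4, Ptprf, Stat3 and Bptf (r 0.96 to 0.97 over 8 mice), and all 7 were highest in WT replicate 4. For Gpr17, Bcas1, Enpp6 and Neu4 the 8 were Slc29a3, Bicra, Yy1, Myrf, Ppp1r14a, Inpp5j, Otud7b and Arhgef10 (r 0.94 to 0.97), all again highest in that mouse.

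Levels of different genes were compared per transcript length, as summed TPM, a measure scaled by length and library size, in each mouse. Bcas1, at 101 ± 15.4 TPM over 8 mice, and Olig1, at 90.6 ± 19.5 TPM, formed the top of the order. Olig2 (20.1 ± 4.49 TPM), Gpr17 (20.03 ± 3.46), Tnr (19.8 ± 3.39) and Pdgfra (18.1 ± 3.66) lay together below them. Enpp6 (6.20 ± 1.01 TPM), Sox6 (5.91 ± 1.49), Neu4 (5.09 ± 1.10) and Cspg4 (4.09 ± 1.37) made up the lowest group. Neighbours within a group did not separate beyond their spread, with Bcas1 above Olig1 in 6 of 8 mice. Olig2 was above Gpr17 in 5 mice, Gpr17 above Tnr in 4 and Tnr above Pdgfra in 5. In the lowest group Enpp6 was above Sox6 in 6 mice, Sox6 above Neu4 in 7 and Neu4 above Cspg4 in 6. Between groups the order held in all 8 mice, for Olig1 above Olig2 and for Pdgfra above Enpp6.

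**Figure D4:**
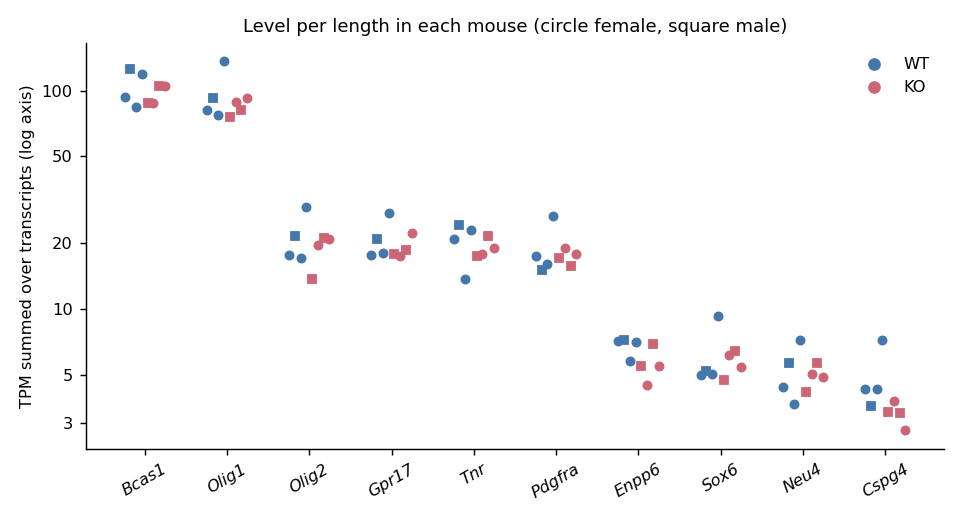
Level per length of each member in each mouse, in TPM summed over its transcripts on a log axis, with WT in blue, KO in red, circles for females and squares for males. The members form 3 levels, led by Bcas1 and Olig1, and WT and KO points are mixed within each gene.

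Transcripts of the members were tested as well. Of 54 annotated transcripts of the members, 25 were tested, 18 had a fold change below 0 and none passed the threshold, beside 0% of all 39966 tested transcripts. None of the 25 had an unadjusted p under 0.05, where 2.04% of all tested transcripts did. Enpp6-202, a short coding transcript of 1390 bases, was the 1 member transcript whose groups did not overlap, where 0.938% of all tested transcripts had every KO mouse below every WT mouse and 1.07% every KO mouse above. It had 1.13, 0.770, 0.774 and 0.711 CPM in WT and 0.709, 0.085, 0.318 and 0.299 CPM in KO mice. The closest WT and KO values, 0.711 and 0.709, all but touched. Its share of Enpp6 TPM was 14.8 ± 2.35% in WT and 6.98 ± 4.57% in KO mice, and its log2 fold change was -1.26 (SE 0.56, adjusted p = 0.99997 by edgeR's quasi-likelihood test). Neu4 was split between a transcript of 1719 bases (Neu4-202, 56.8% of its TPM) and one of 4511 bases (Neu4-201, 43.2%), whose log2 fold changes were 0.18 (SE 0.25) and -0.26 (SE 0.14). Gpr17, Olig1 and Olig2 had 1 transcript each, and Cspg4-201 carried 77.5% of Cspg4 TPM. Shares between overlapping transcripts are estimates and are less certain than gene totals.

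Other genes of the lineage gave the members their setting. Of 14 other precursor genes, 9 were below 0 and 5 above, with a median log2 fold change of -0.07 (0.02 with sex in the fit, 0.0088 without WT replicate 3) and none with an unadjusted p under 0.05. Of 11 other newly formed genes, 7 were below 0 with a median of -0.05, and 1, Cnksr3, a scaffold protein gene, had non-overlapping groups. Cnksr3 had 6.84 to 7.87 CPM in WT and 5.72 to 6.45 CPM in KO mice (log2 fold change -0.34, SE 0.10). Of 14 mature genes, 12 were below 0 with a median of -0.06 (0.02 without KO replicate 2), and Trf and Apod did not overlap. Of all tested genes, 50.3% were below 0 and 0.877% had every KO mouse below every WT mouse, as these 3 genes did. Trf, for transferrin, had 357 to 425 CPM in WT and 280 to 324 CPM in KO mice (log2 fold change -0.35, SE 0.08), and Apod, for apolipoprotein D, had 111 to 120 and 90.7 to 106 CPM (-0.26, SE 0.07). None of these passed the adjusted threshold in edgeR, and Trf passed it in DESeq2 (adjusted p = 0.0989). The myelin genes Mbp (-0.09, SE 0.11) and Mog (-0.01, SE 0.14) had log2 fold changes smaller than their errors. That did not hold for every mature gene. Mobp, named after its values were seen, had -0.18 (SE 0.09), with overlapping groups.

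Taken relative to the 14 mature genes, the stages did not separate by genotype. The mean log2 CPM of the 4 precursor members minus that of the mature genes was -1.91 ± 0.30 in WT and -1.93 ± 0.24 in KO mice. For the pair of lineage factors it was -1.54 ± 0.30 and -1.57 ± 0.25, and for the 4 committed-stage members -2.32 ± 0.16 and -2.34 ± 0.12. These differences in log2 CPM are not scaled by length, so they compare mice and say nothing of which stage is higher. Each measure overlapped between groups and was highest in WT replicate 4. KO replicate 2 was next for precursor and lineage members, at -1.58 and -1.25, and had the lowest mature mean, 7.31.

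**Figure D5:**
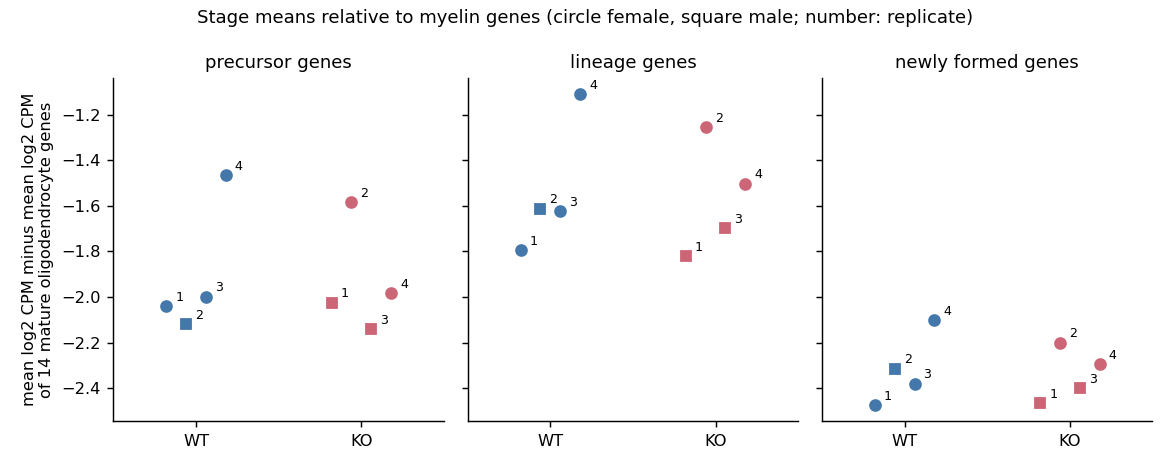
Mean log2 CPM of the precursor, lineage and committed-stage (newly formed) members minus the mean of 14 mature oligodendrocyte genes, in each mouse, with circles for females, squares for males and replicate numbers beside the points. Values are log2 differences, both groups cover much the same range, and WT replicate 4 and KO replicate 2 are the 2 highest in each panel.

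Markers of other cells in the tissue were read for the same contrast. The stem and progenitor list was below 0 for 4 of 6 genes (median -0.13), the striatal neuron list for 8 of 8 (-0.09), the cortical neuron list for 7 of 8 (-0.79) and the ependymal and choroid plexus list for 4 of 8 (-0.01). The astrocyte list was below 0 for 4 of 6 genes (-0.07), with Gfap at -0.44 (SE 0.18), and the microglia list for 5 of 6 (-0.17), with Csf1r at -0.35 (SE 0.14). No gene of any of these lists passed the threshold in edgeR, and some medians moved with single mice. The cortical median was -1.59 when KO replicate 3 was left out and 0.50 when WT replicate 2 was. The striatal median was 0.11 with sex in the fit, 0.12 without WT replicate 3, 0.0045 without WT replicate 1, 0.01 without KO replicate 2 and -0.34 without WT replicate 2. The ependymal and choroid plexus median ran from -0.13 without KO replicate 2 to 0.19 without KO replicate 3.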

How the data were processed

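RNA was sequenced from the periventricular tissue of 4 WT and 4 KO mice, with genotype, sex and replicate taken from the labels. The authors demultiplexed reads with bcl2fastq 2.20 and quantified them with Salmon against Gencode mouse transcripts, and deposited, per transcript, estimated counts, TPM and lengths. The gene table of estimated counts was deposited for all 8 mice, and the transcript counts sum to it. Estimated counts were rounded, filtered (filterByExpr) and TMM-normalized, and KO was tested against WT with edgeR 4.0.16 (quasi-likelihood test, R 4.3.3, limma 3.58.1), with Benjamini-Hochberg adjustment over 17669 genes and a threshold of 0.1, after the study's own threshold. The code was tested on simulated data with known changes. Gene symbols covered 94.8% of gene IDs, and 97.4% of transcripts were matched to genes by an annotation of an earlier release. TPM were summed per gene for comparisons between genes. Salmon shares reads among overlapping transcripts by estimation, which adds uncertainty that the fit does not carry.

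Named genes were Lrig1, the 10 members, Sox10, Mbp, Mog, Pdgfa and Pdgfrb, up to 5 genes of each other list by unadjusted p under 0.05 or non-overlap, and the 8 genes most correlated with each stage's members (mean of at least 5 CPM). Some genes under this rule are not reported here. The members and the 12 other lists were chosen with earlier results of these data known, so no set test was run. Alternatives were DESeq2 1.42.0 and its size factors, other count filters, sex as a covariate, a replicate block, females alone, transcript sums with length offsets, the mature list as reference, and leaving out each mouse. Replicate numbers do not pair the mice: deviations of same-numbered mice correlated at 0.08, -0.22, -0.22 and 0.27. WT mice were littermates of KO mice, but which mouse came from which litter is not given in the sources used here, so no litter term was fitted. Promoter windows came from RefSeq tables on GRCm38.p6, an earlier build than that of the transcripts, and were used for sequence only.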

Additional observations from a re-analysis of the deposited data

Results flagged for a closer look

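Of 44 groups of 4 mice examined for a value far from its group, 3 held one (6.82%), where chance alone gives about 1 in 20. Olig2 was low in KO replicate 1, at 27.2 CPM against 34.4 CPM in the next KO mouse. Neu4 was high in WT replicate 4, at 13.0 CPM against 10.2 CPM in the next WT mouse. The summed cortical neuron markers were high in WT replicate 2, at 1964 CPM against 455 CPM in the next WT mouse.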

How the results depend on the processing

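No member passed the adjusted threshold under any of 17 alternatives, and their lowest adjusted p was 0.686, for Cspg4 with DESeq2 and sex, an alternative chosen after seeing the data. The knocked-out gene Lrig1 itself did not pass in 11 of the 17. Between 6 and 10 members were below 0, and their median ran from -0.17 to -0.01. Over all genes, where 1 gene passed, DESeq2 gave 12, no filter 2, a minimum of 10 counts 0, sex as a covariate 2, females alone 3 and DESeq2 with sex 201, and leaving out 1 mouse gave 0 to 3. The study's own DESeq2 analysis called many more genes than the main fit at the same threshold, Lrig1 among them. With the replicate block 0 genes passed, and no call on a member changed. The mature list's median went from -0.06 to -0.20 in females alone. Log2 fold changes that turned sign were Pdgfra (0.033 with sex, 0.031 with DESeq2 and sex, 0.039 relative to the mature list, and -0.22 to 0.072 leaving out 1 mouse, above 0 only without WT replicate 4), Sox6 (-0.048 with transcript sums, and -0.028 to 0.24 leaving out 1 mouse, below 0 only without WT replicate 2 or KO replicate 2), Olig1 (-0.20 to 0.011) and Gpr17 (-0.14 to 0.016) leaving out 1 mouse, both above 0 only without WT replicate 4, Gpr17 (0.010), Bcas1 (0.0072) and Tnr (0.032) relative to the mature list, and Neu4 (0.18) by its leading transcript alone, also added after seeing the data. The cause was not tested. Each member had at least 472 estimated counts in a mouse, and the intervals mostly carry the spread between 4 mice a group.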
